A study of Rattus norvegicus with 3 samples.

Results

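Genes for matrix proteases, plasminogen activators and their inhibitors were examined in cultured rat granulosa cells. Members were the genes whose probe sets the platform annotation pairs with a lone symbol that begins with Mmp, Adamts or Timp and a digit, or with Serpin, or that is Plat, Plau or Plaur. The rule found 69 of 14218 genes, read by 90 of 20832 named probe sets. It used no measured value, but was chosen with earlier results of these data known. Granulosa cells, which line the follicle and surround the oocyte, came from immature Sprague-Dawley females aged 24 to 25 days. They were released by puncturing follicles 48 h after PMSG, a gonadotropin preparation that drives follicle growth, and were kept in primary culture. Cells of every group carried an adenovirus at 50 pfu per cell, which was washed off after 2 h. In 1 group the virus encoded NFIL3, a bZIP transcription factor known mainly as a repressor (Ad-NFIL3), and from 24 h after infection the cells received forskolin (FSK, 10 uM) together with the phorbol ester PMA (20 nM) for 6 h. Another group had a green fluorescent protein virus (Ad-GFP) and the same FSK/PMA, which raises cAMP and activates protein kinase C to mimic the ovulatory hormone. The remaining group had Ad-GFP alone. Each group was 1 Affymetrix array with RNA pooled from 3 experiments. They are called the NFIL3, the FSK/PMA and the control array below. Group and array cannot be told apart, no test was possible, and no p-value is given.

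Before ovulation the follicle wall and the matrix around the oocyte are remodelled by secreted proteases. Plasminogen activators cut plasminogen to plasmin, a broad serine protease. In the rat, granulosa cells are known for gonadotropin-induced tissue plasminogen activator, whereas in the mouse urokinase is the better known activator. Serpins are suicide inhibitors that trap serine proteases, and some have other tasks. Matrix metalloproteinases and ADAMTS proteases are zinc enzymes that cut collagens, proteoglycans and other matrix proteins, and TIMP proteins inhibit them.

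Values are linear MAS5 signals, and signals of different genes were not ranked against each other. Sums over marker lists are given to compare arrays only. The median of all signals, 126, served as a floor to which dimmer signals were raised before log2 differences were taken. Where 1 of the arrays lay under the floor, the fold is a lower bound, written with "at least". Of the 69 members, 30 were above the floor on at least 1 array and 21 on all 3. By array, 40.6% of members were above the floor on the NFIL3 array, 39.1% on the FSK/PMA array and 30.4% on the control array, against 61.3% to 64.1% of all genes. All 39 remaining members stayed below the floor, with signals of at most 110. They included Mmp3, Mmp7, Mmp8, Mmp9 and Mmp12 among metalloproteinases, 11 of 12 Serpina genes, and Timp4. The only error that could be had was the disagreement between probe sets of the same gene, with a robust SD per log2 difference of 0.31 for FSK/PMA and 0.22 for NFIL3. A 2-fold difference is 3.26 and 4.48 times these. This leaves out the spread between cultures.

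**Figure D1:**
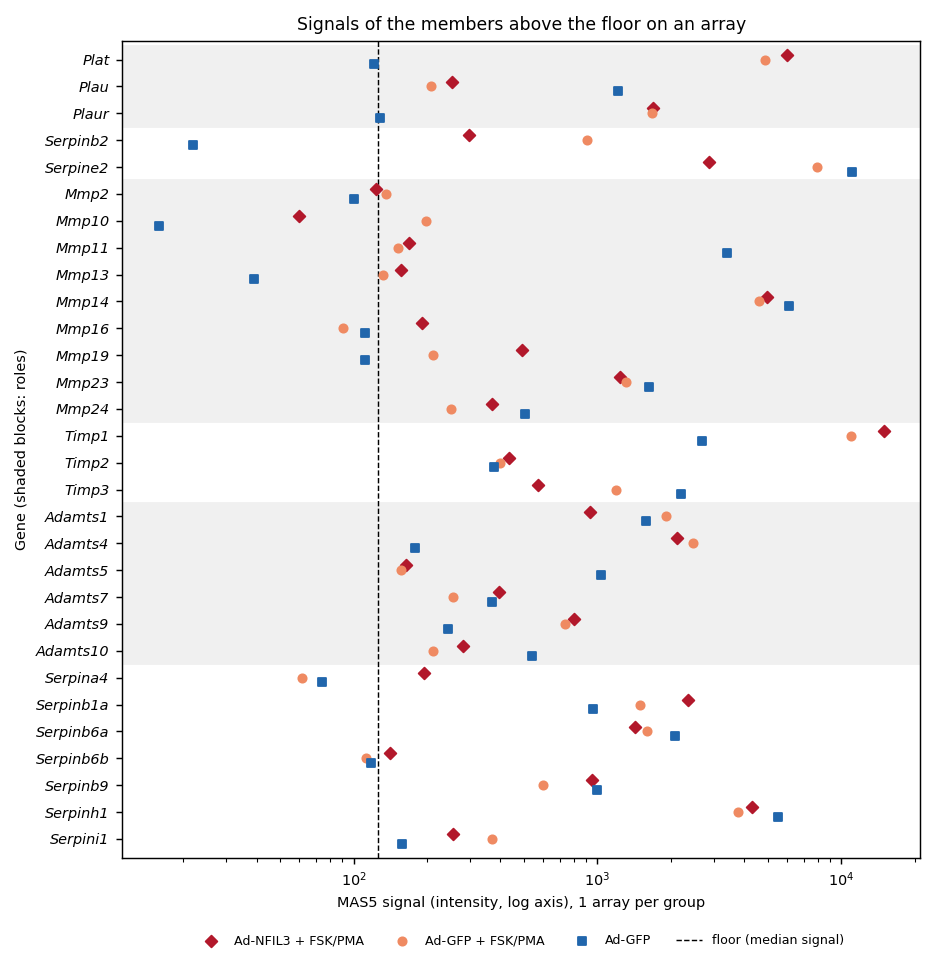
MAS5 signal (log axis) of the 30 members above the floor on at least 1 array, with a diamond, a circle and a square for the NFIL3, FSK/PMA and control arrays and a dashed line at the floor of 126. Plat, Plaur, Serpinb2 and Adamts4 lie far to the left on the control array, Mmp11, Plau and Adamts5 far to the right.

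Nfil3 itself, read as a check of the labels, had a signal of 5882 on the NFIL3 array, 1321 on the FSK/PMA array and 564 on the control array. Of 9 granulosa cell markers on the array, 9, 9 and 8 were above the floor on the NFIL3, FSK/PMA and control arrays, and their summed signals, mostly Inha and Inhba, were 33382, 59960 and 76257. With FSK/PMA 5 of the 9 were lower by 2-fold or more, while Cyp19a1, aromatase, was at least 19.8-fold higher. With NFIL3 3 of 9 were lower and 0 higher. Among theca and stroma markers 4, 3 and 6 of 11 were above it, with summed signals of 1563, 1095 and 1454, and Cyp17a1 and Insl3, which define theca cells, reached at most 46.2. Leukocyte markers were above the floor in 3, 2 and 2 of 7 cases, with summed signals of 2161, 2033 and 1021. Ptprc, the pan-leukocyte marker, reached at most 87.1, while Cd14 was 2.46-fold higher with FSK/PMA. Of 4 endothelial markers 2, 2 and 1 were above the floor, with sums of 514, 476 and 385. Of 5 oocyte markers only Zp2 was, with sums of 430, 575 and 967. Both red cell markers were above the floor on all 3 arrays, Hbb with signals of 15376, 18005 and 19442 and Alas2 with 338, 361 and 494. The part of these cells in the results below was not tested. In a pool of cells, fewer cells of a type and less RNA per cell cannot be told apart.

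With FSK/PMA, plasminogen activation genes showed large differences in both directions. Plaur, the urokinase receptor, was 13.0-fold higher and the gene of the tissue-type activator, Plat, at least 38.6-fold higher, whereas Plau, urokinase itself, was 5.82-fold lower. Of 27 members above the floor on either array, 7 were higher and 5 lower by 2-fold or more. Among 9395 genes measured in the same way, 7.43% were that much higher and 11.4% that much lower. In shares, 25.9% and 18.5% of the measured members were higher and lower, each above the share of all genes. The median log2 difference was 0.06 over the measured members and -0.10 over all genes. The median size regardless of sign was 0.76 over the members and 0.45 over all genes. Of the 27 members, 21 were above the floor on both arrays and 6 on 1 alone.

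Among the activators and receptor, Plat had signals of 5967 on the NFIL3 array, 4863 on the FSK/PMA array and 121 on the control array. Both stimulated arrays were far above the floor, and the control array lay just under it. Plau had signals of 253 on the NFIL3 array, 209 on the FSK/PMA array and 1215 on the control array. Its second, dimmer probe set was at least 3.01-fold lower with FSK/PMA, the same direction. Plaur, which holds urokinase at the cell surface, had signals of 1696 on the NFIL3 array, 1669 on the FSK/PMA array and 129 on the control array, the last barely above the floor. A second Plaur probe set reached at most 15.1 on all arrays, and the brighter one has an ID suffix that marks a design able to bind several transcripts.

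Between the 2 stimulated arrays these 3 genes differed little. The log2 differences with NFIL3 were 0.30 for Plat, 0.28 for Plau and 0.02 for Plaur, all well within 2-fold.

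Of the 4 serpins grouped here as inhibitors of plasminogen activators or plasmin, Serpinb2 and Serpine2 were measured, and both were at least 2-fold lower on the NFIL3 array. Serpini1, described with the other serpins, also inhibits a plasminogen activator and was 1.45-fold lower there. Serpina5 and Serpinf2 reached at most 15.4. Serpinb2, plasminogen activator inhibitor 2, had signals of 296 on the NFIL3 array, 908 on the FSK/PMA array and 22.0 on the control array. It was at least 7.22-fold higher with FSK/PMA and 3.07-fold lower with NFIL3, so that the NFIL3 array lay between the others. With a higher floor of 547 these were 0.73 and -0.73 on the log2 scale, neither past 2-fold. Serpine2, protease nexin 1, which traps thrombin and plasminogen activators, had signals of 2873 on the NFIL3 array, 7970 on the FSK/PMA array and 11063 on the control array. It was 1.39-fold lower with FSK/PMA and 2.77-fold lower with NFIL3. Here the NFIL3 array was the lowest, 3.85-fold under the control array. Both genes had 1 probe set. Among 8432 genes above the floor on both stimulated arrays, Serpinb2 had the 16th and Serpine2 the 22nd lowest NFIL3 difference.

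**Figure D2:**
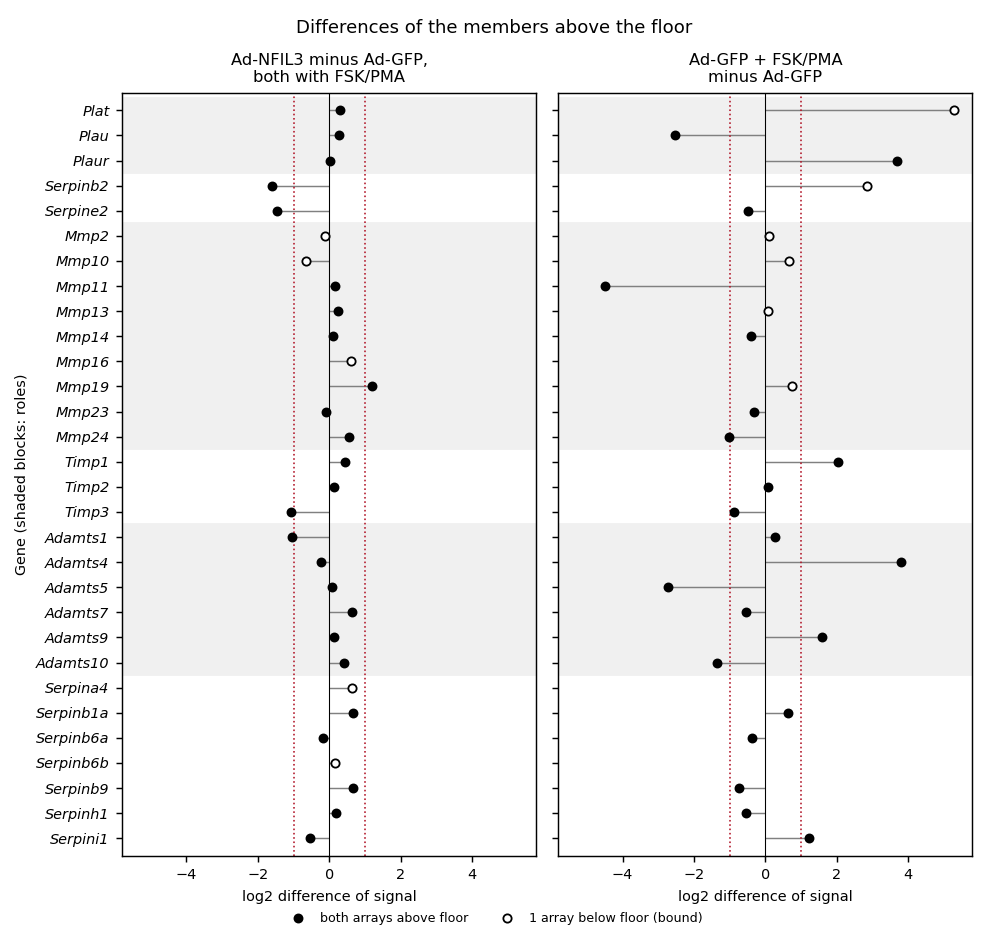
Log2 difference of signal of the 30 members, NFIL3 minus FSK/PMA array on the left and FSK/PMA minus control array on the right, with open circles for bounds and dotted lines at 2-fold. Differences span -4.48 to 5.27 in the FSK/PMA comparison and -1.62 to 1.21 in the NFIL3 comparison.

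Across all members, 30 were measured in the NFIL3 comparison, of which 1 was higher and 4 were lower by 2-fold or more. Among 9397 measured genes, 1.34% were that much higher and 0.958% that much lower. The 4 lower members make 13.3% of those measured. They were Serpinb2, Serpine2, Timp3 and Adamts1, hence 3 inhibitors and 1 protease, and the higher one was the protease gene Mmp19. The median log2 difference was 0.14 over the members and 0.03 over all genes. When the arrays were scaled to a common median, the median of all genes was -0.20 in place of 0.03, and 0 members were higher and 4 lower. Of all genes past 2-fold with NFIL3, 58.3% were higher, against 20.2% with that scaling, 44.8% with quantile and 42.2% with cyclic loess scaling. Under the scalings tried, 7 members turned sign, none of them with a difference above 0.19 in size: Adamts5, Adamts9, Mmp11, Mmp14, Plaur, Serpinh1 and Timp2. In the FSK/PMA comparison that scaling put the median of all genes at 0.03 in place of -0.10, and 0 of 27 members turned sign. Of all genes past 2-fold with FSK/PMA, 39.4% were higher, against 50.1% with that scaling. Both comparisons use the FSK/PMA array, so their values are not independent.

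Of 17 matrix metalloproteinase genes 9 were above the floor on an array, and in the FSK/PMA comparison 2 of 8 measured genes were lower by 2-fold or more and 0 higher. With a floor of 62.9, or with log2(signal + 16), Mmp10 and Mmp13 were also higher by 2-fold or more. Mmp11, stromelysin 3, had signals of 169 on the NFIL3 array, 152 on the FSK/PMA array and 3393 on the control array. Both stimulated arrays were close to the floor. Its 22.3-fold lower signal with FSK/PMA was the lowest difference among 8296 genes above the floor on both arrays. With NFIL3 its log2 difference was 0.16.

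Mmp24, a membrane-type metalloproteinase, had signals of 370 on the NFIL3 array, 250 on the FSK/PMA array and 504 on the control array. It was 2.02-fold lower with FSK/PMA, just past the line of 2-fold, and under it with each of the 3 other scalings (-0.88 to -0.83 on the log2 scale). A second probe set was at least 2.95-fold lower. Mmp14, the membrane-type enzyme that activates pro-MMP2, had signals of 4968, 4586 and 6113 on the NFIL3, FSK/PMA and control arrays, all within 2-fold. Mmp23, another membrane-bound member, had signals of 1235, 1309 and 1631 and was also within 2-fold throughout.

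With the floor of 126, Mmp19 was the only metalloproteinase gene past 2-fold in the NFIL3 comparison. With the floor of 62.9 Mmp16 was also higher and Mmp10 lower, and Mmp10 was lower too with log2(signal + 16). Signals of Mmp19 were 492 on the NFIL3 array, 213 on the FSK/PMA array and 111 on the control array. It was 2.31-fold higher with NFIL3, at least 1.69-fold higher with FSK/PMA, and at least 3.91-fold higher on the NFIL3 than on the control array. The signals stood in the order NFIL3, FSK/PMA, control. With the arrays scaled to a common median the NFIL3 difference was 0.97 on the log2 scale, just short of 2-fold. Cd14 and the other leukocyte markers measured had NFIL3 differences with a median of 0.23. Of 4 theca and stroma markers measured, Dcn (decorin) was 2.45-fold higher on the NFIL3 array, while Col3a1, Col1a2 and Pdgfra differed by 0.05, 0.25 and, as a bound, 0.24 on the log2 scale. The part of these cells in the Mmp19 signal was not tested. Mmp2, Mmp10, Mmp13 and Mmp16 were dim, between 15.9 and 198 on the 3 arrays. On the control array Mmp10 and Mmp13, with 15.9 and 39.2, were well below the floor. Mmp10, stromelysin 2, had signals of 59.6, 198 and 15.9 on the NFIL3, FSK/PMA and control arrays.

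Of the 4 inhibitors named for metalloproteinases, Timp1 was past 2-fold with FSK/PMA and Timp3 with NFIL3. Timp1 had signals of 14983 on the NFIL3 array, 11010 on the FSK/PMA array and 2688 on the control array. The FSK/PMA array was 4.10-fold above the control array, and the NFIL3 array 1.36-fold above the FSK/PMA array. Timp3, the TIMP that binds to the matrix and also inhibits ADAMTS enzymes, had signals of 571 on the NFIL3 array, 1197 on the FSK/PMA array and 2199 on the control array. It was 1.84-fold lower with FSK/PMA and 2.09-fold lower with NFIL3, in all 3.85-fold lower on the NFIL3 than on the control array. The 3 dimmer Timp3 probe sets had NFIL3 differences of -0.74, -0.80 and, as a bound, -0.09 on the log2 scale, all below 0 and none past 2-fold, and the mean over its probe sets was -0.67. With FSK/PMA they were -0.72, 0.16 and, as a bound, 0.09, so the direction of that smaller difference varied among probe sets. Timp2 had signals of 433, 398 and 378 on the NFIL3, FSK/PMA and control arrays, a flat pattern.

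**Figure D3:**
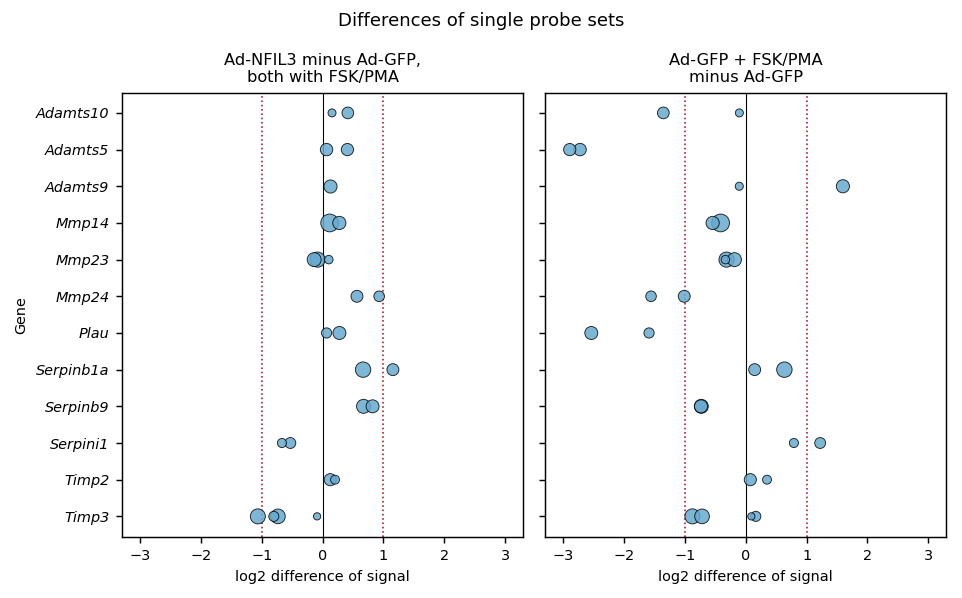
Log2 difference of each measured probe set for the members with more than 1, NFIL3 minus FSK/PMA array on the left and FSK/PMA minus control array on the right, with larger points for brighter probe sets and dotted lines at 2-fold. Probe sets of a gene lay on the same side of 0 in 10 of 11 members with NFIL3 and in 10 of 12 with FSK/PMA. Over all genes this was 63.9% of 2179 with NFIL3 and 73.6% of 2073 with FSK/PMA. That count took the brightest 2 probe sets above the floor on both arrays, whereas the member count took every measured one, bounds included.

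Disagreement between probe sets was seen for Mmp23 with NFIL3, and for Adamts9 and Timp3 with FSK/PMA. In each case the probe sets on the other side of 0 were the dim ones.

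Among 12 ADAMTS genes 6 were measured, and with FSK/PMA 2 were at least 2-fold higher and 2 lower. The aggrecanase genes Adamts4 and Adamts5 differed in opposite directions. Adamts4 had signals of 2117 on the NFIL3 array, 2473 on the FSK/PMA array and 178 on the control array, and was 13.9-fold higher with FSK/PMA. Adamts5 had signals of 164 on the NFIL3 array, 157 on the FSK/PMA array and 1037 on the control array, and was 6.62-fold lower. Its second probe set was 7.45-fold lower. With the floor of 547 the difference was -0.92 on the log2 scale, short of 2-fold. Neither gene was past 2-fold with NFIL3, with log2 differences of -0.22 for Adamts4 and 0.06 for Adamts5.

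Adamts1, which cuts versican in the expanding cumulus matrix of the mouse, had signals of 932 on the NFIL3 array, 1910 on the FSK/PMA array and 1587 on the control array. It was 1.20-fold higher with FSK/PMA and 2.05-fold lower with NFIL3, where the NFIL3 array was the lowest. Adamts1 and Adamts5 are neighbours on chromosome 11 among protein-coding genes. Adamts9, another versican-cutting protease, had signals of 799, 736 and 243 on the NFIL3, FSK/PMA and control arrays and was 3.03-fold higher with FSK/PMA. A second, dim probe set was at least 1.08-fold lower, and the mean of both, with that bound at its limit, was 0.74 on the log2 scale, under 2-fold. Adamts10, linked to fibrillin microfibrils, had signals of 281, 211 and 540 and was 2.56-fold lower with FSK/PMA. Its dim second probe set differed by at least 1.08-fold in the same direction, which put the mean at -0.73, under 2-fold. Adamts7 had signals of 396, 255 and 371, lowest on the FSK/PMA array and within 2-fold.

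The remaining 29 serpins were mostly dark, with 7 above the floor on an array. With FSK/PMA 1 of 5 measured was at least 2-fold higher and 0 lower, and with NFIL3 0 of 7 were past 2-fold. Serpini1, neuroserpin, an inhibitor of tissue plasminogen activator, had signals of 256 on the NFIL3 array, 370 on the FSK/PMA array and 158 on the control array. It was 2.33-fold higher with FSK/PMA, and its second probe set was at least 1.73-fold higher. Serpini1 and Serpinb2 thus had the same order of arrays as each other, highest on the FSK/PMA array and lowest on the control array.

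Apart from Serpinb2, the measured serpins of the B clade stayed within 2-fold by their brightest probe set. Serpinb1a, an inhibitor of neutrophil elastase, had signals of 2359, 1488 and 958 on the NFIL3, FSK/PMA and control arrays, and the steps between arrays were 1.59-fold and 1.55-fold. Its second probe set differed by 1.16 with NFIL3 and 0.15 with FSK/PMA on the log2 scale. Serpinb9, an inhibitor of granzyme B, had signals of 952, 598 and 993, lowest on the FSK/PMA array. Both of its probe sets were lowest there, with NFIL3 differences of 0.67 and 0.82 on the log2 scale. The second, unlike the first, was highest on the NFIL3 array. Serpinb1a, Serpinb6b and Serpinb9 lie in a row of 4 neighbouring members on chromosome 17, in which Serpinb6b stayed near the floor and Serpinb9b below it. Serpinb6a had signals of 1426, 1598 and 2073 and Serpinh1, a collagen chaperone that is no protease inhibitor, had signals of 4309, 3773 and 5482, both within 2-fold. A second Serpinh1 probe set reached at most 76.8 on all arrays, and the brighter one has the same ID suffix as that of Plaur.

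Read by gene family, 3 of 10 measured Timp and Serpin genes, the chaperone gene Serpinh1 among them, were at least 2-fold higher with FSK/PMA and 0 were lower. For protease genes the counts were 3 higher and 5 lower of 16. Plaur, a receptor and higher with FSK/PMA, was counted in neither group. With NFIL3, 3 of 12 Timp and Serpin genes were lower and 0 higher, Serpinh1 again counted, against 1 lower and 1 higher of 17 protease genes. In some other settings Serpina4 was also past 2-fold higher with NFIL3, and in some Serpinb2 or Timp3 fell short of 2-fold. The protease counts varied with the setting too. Of all measured genes, 7.43% were that much higher and 11.4% that much lower with FSK/PMA. With NFIL3 these shares were 1.34% and 0.958%. At such shares, a count of 0 among few genes says little. The difference between these families was not tested.

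**Figure D4:**
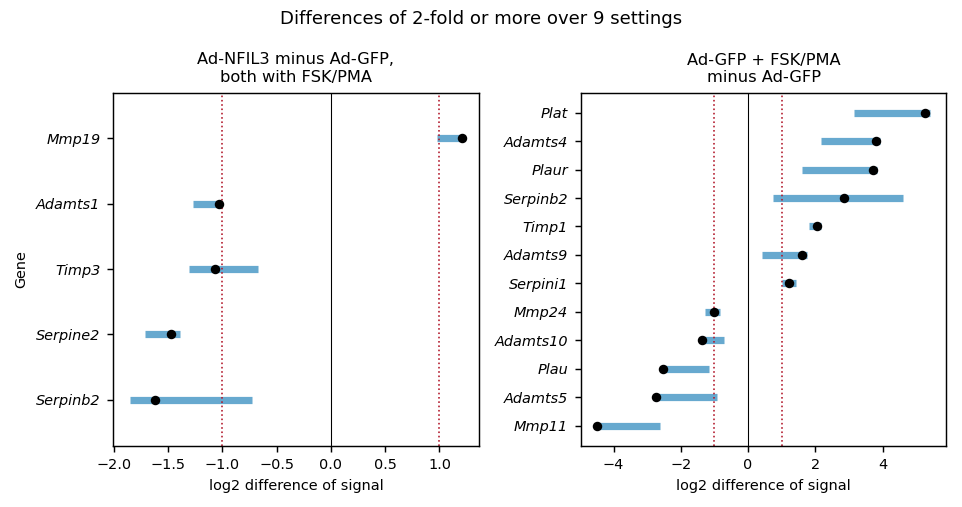
Log2 differences past 2-fold, NFIL3 minus FSK/PMA array on the left and FSK/PMA minus control array on the right, with a dot for the value reported, a bar for its range over that value and up to 8 alternative settings, and dotted lines at 2-fold. Bars that cross a dotted line belong to Mmp19, Timp3 and Serpinb2 on the left, and to Serpinb2, Adamts9, Mmp24, Adamts10 and Adamts5 on the right.

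Promoter sequences from RefSeq (GRCr8), covering 250 bases before to 50 after each gene start, were found for 51 of the 69 members. Plat, Adamts5 and Mmp19, each past 2-fold in a comparison, were among the members without one. They were searched on both strands for sites of the factor families that cAMP, protein kinase C and NFIL3 act through. The AP-1 site TGAGTCA was in 8 of 51 member promoters (15.7%) and in 4.53% of 27457 promoters. Those members were Plaur, Serpinb3, Serpinb7 and the metalloproteinase genes Mmp3, Mmp7, Mmp10, Mmp12 and Mmp13. The metalloproteinase genes are of the same family and lie close together on chromosome 8. Serpinb3 and Serpinb7 lie in a row of neighbouring members on chromosome 13. The 15.7% can thus not be read as a share of unrelated genes. The cAMP response element TGACGTCA was in 0 member promoters and 1.91% of all. Its core TGACG, which the full element contains, was in 5 (9.80%) and in 22.0% of all. The NFIL3-type sites TTATGTAA and TTACGTAA were in 0 member promoters, against 0.881% and 0.127% of all. At such shares, and at that of the full cAMP response element, a count of 0 among 51 promoters says little. A match is a description of letters, not of binding.

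The 5 metalloproteinase promoters are shown together because each holds the AP-1 letters (capitals, on the opposite strand in Mmp13 and so printed there as the reverse complement) at a like distance from the gene start, with the first base between -87 and -61. The last 120 bases before the start are given 5′ to 3′.
Mmp3, chr8:12925161-12925280, plus strand: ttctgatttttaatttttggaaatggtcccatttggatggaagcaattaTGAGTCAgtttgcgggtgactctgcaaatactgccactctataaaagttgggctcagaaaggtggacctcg
Mmp7, chr8:13132923-13133042, plus strand: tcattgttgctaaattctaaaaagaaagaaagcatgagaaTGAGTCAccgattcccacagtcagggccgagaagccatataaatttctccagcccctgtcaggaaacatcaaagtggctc
Mmp10, chr8:12974587-12974706, plus strand: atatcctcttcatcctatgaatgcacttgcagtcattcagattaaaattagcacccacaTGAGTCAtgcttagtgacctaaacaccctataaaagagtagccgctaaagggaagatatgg
Mmp12, chr8:12866532-12866651, plus strand: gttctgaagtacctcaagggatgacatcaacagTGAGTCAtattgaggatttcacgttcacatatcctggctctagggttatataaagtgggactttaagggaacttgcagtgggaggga
Mmp13, chr8:12782709-12782828, plus strand: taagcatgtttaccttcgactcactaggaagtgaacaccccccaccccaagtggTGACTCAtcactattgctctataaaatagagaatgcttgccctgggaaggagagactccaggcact

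Signals of Mmp3, Mmp7 and Mmp12 stayed below the floor on all arrays, and Mmp10 and Mmp13 reached at most 198 and 157. Plaur, with the same site at -83 on the opposite strand, was the member of this group with high signals on the stimulated arrays. Its 250 bases before the start are shown for comparison.
Plaur, chr1:89181113-89181362, plus strand: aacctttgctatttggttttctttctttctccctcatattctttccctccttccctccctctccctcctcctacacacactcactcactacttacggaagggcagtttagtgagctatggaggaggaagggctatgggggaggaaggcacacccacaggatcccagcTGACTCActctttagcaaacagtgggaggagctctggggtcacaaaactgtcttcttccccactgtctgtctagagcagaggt

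Plau, Timp1 and Adamts1 are shown because they hold the core TGACG (capitals), read on the opposite strand in Plau and so printed there as the reverse complement, before their start and are past 2-fold. Plau was lower with FSK/PMA, Timp1 was higher, and Adamts1 was lower with NFIL3. Serpine2, also past 2-fold with NFIL3, held the core at position 22 after the start. Timp2, within 2-fold, held it at -179.
Plau, chr15:3511988-3512237, minus strand: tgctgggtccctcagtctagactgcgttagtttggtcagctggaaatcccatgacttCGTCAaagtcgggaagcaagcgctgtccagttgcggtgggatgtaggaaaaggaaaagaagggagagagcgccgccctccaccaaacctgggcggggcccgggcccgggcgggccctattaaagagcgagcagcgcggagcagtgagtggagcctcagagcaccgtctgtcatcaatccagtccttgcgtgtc
Timp1, chrX:3771123-3771372, minus strand: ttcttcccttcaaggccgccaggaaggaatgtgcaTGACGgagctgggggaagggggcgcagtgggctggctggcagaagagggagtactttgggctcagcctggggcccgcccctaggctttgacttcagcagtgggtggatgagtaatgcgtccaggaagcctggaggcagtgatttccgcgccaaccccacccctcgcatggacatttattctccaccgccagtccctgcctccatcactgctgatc
Adamts1, chr11:38427385-38427634, minus strand: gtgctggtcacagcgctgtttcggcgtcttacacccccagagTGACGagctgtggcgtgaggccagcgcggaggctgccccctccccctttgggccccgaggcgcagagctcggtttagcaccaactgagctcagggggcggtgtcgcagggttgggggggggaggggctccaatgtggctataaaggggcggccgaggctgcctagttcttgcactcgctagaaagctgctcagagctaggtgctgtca

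Partners of plasminogen activation outside the rule were read from a list of 23 genes. With FSK/PMA 5 of 16 measured genes were higher and 1 was lower by 2-fold or more, and with NFIL3 0 of 17 were past 2-fold. For this and the later lists, the shares of all measured genes were 7.43% higher and 11.4% lower with FSK/PMA. They were 1.34% and 0.958% with NFIL3. Procr, the protein C receptor, was 4.35-fold higher with FSK/PMA. S100a10, which with annexin A2 forms a surface site for plasminogen and Plat, was 3.65-fold higher, while Anxa2 differed by -0.10 on the log2 scale. F3, tissue factor, was 3.20-fold higher and Tfpi2, an inhibitor of plasmin, at least 2.89-fold higher. Prss35, a serine protease family member, was 2.31-fold higher, and St14, matriptase, was at least 2.15-fold lower. With NFIL3 the largest difference was that of Vldlr, a receptor that clears activator and inhibitor complexes, at -0.96 on the log2 scale.

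A second list held 30 other metalloproteinases, activating convertases and inhibitors, of which 24 were on the array, Timp4 among them. With FSK/PMA 3 of 16 measured genes were higher by 2-fold or more and 0 lower. Pcsk5 and Pcsk6, proprotein convertases, were 5.42-fold and at least 3.17-fold higher, and Adam19 was 3.78-fold higher. With NFIL3 1 of 15, Adamtsl1, which is related to ADAMTS proteins but has no protease domain, was at least 7.46-fold higher. Pcsk5 and Pcsk6 had NFIL3 differences of -0.92 and -0.89 on the log2 scale.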

How the data were processed

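RNA of each group, pooled from 3 experiments per the labels, was hybridised to an Affymetrix rat array. The deposited values are intensities per probe set, made with MAS5 per the submitters' processing notes. Its version was not stated there. Each deposited column had a 2% trimmed mean of 500.2. Members and gene lists were chosen with earlier results of these data known.

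Of 31099 probe sets, 20832 had 1 gene symbol in the platform annotation, 436 several and 9831 none. Symbols were updated through Entrez IDs in RefSeq (GRCr8), which matched 20764. The arrays were scaled to the same 2% trimmed mean and floored at 126, and log2 was taken. Each gene was read by its brightest probe set (mean of the 3 arrays). A gene counted as measured with 1 of the 2 arrays above the floor. Differences of 2-fold or more were counted, with no test since each group had 1 array. The number of arrays limits the precision. The calculations were tested on simulated data with large differences set in bright genes. Recovery of differences near 2-fold or near the floor was not tested.

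Values on all 3 arrays are given for members past 2-fold in either comparison whose signal on an array reached 252 (2 floors), for 10 members listed with earlier results known, and for those with the highest mean signals. Members outside this rule that are given values were chosen after their values were seen. Of the partner lists, up to 4 genes with the largest difference are named, and others for comparison. Alternatives were other floors, log2(signal + 16) without a floor, median, quantile and cyclic loess scaling (limma 3.58.1, R 4.3.3), the mean of probe sets, and probe sets without an ID suffix. Other steps used Python 3.11.15 and pandas 2.3.3.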

Additional observations from a re-analysis of the deposited data

How the results depend on the processing

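In all, 8 alternatives were tried, and 0 differences of 2-fold or more changed direction under them. Of the 12 members past 2-fold with FSK/PMA, Adamts4, Mmp11, Plat, Plau, Plaur, Serpini1 and Timp1 stayed past it in every setting that could be run, and of the 5 with NFIL3, Adamts1 and Serpine2 did. Serpini1 was not measured with the floor of 547, nor Plaur with probe sets without an ID suffix, so neither was read in every setting. A floor at the 75th percentile of signals, 547, left 4 members higher and 2 lower with FSK/PMA, with a median of -0.35, and 0 higher with NFIL3. There Serpinb2 differed by 0.73 with FSK/PMA and -0.73 with NFIL3, Adamts5 by -0.92 and Adamts9 by 0.43, because the higher floor bounds dim signals. A floor of 62.9 gave 3 higher members with NFIL3, and log2(signal + 16) gave 2, and each gave 9 higher with FSK/PMA, Mmp10 and Mmp13 among them. Scaling to a common median gave 0 higher members with NFIL3 and a member median of -0.10, and the cause was not tested. The mean of probe sets put Timp3 at -0.67 with NFIL3, and probe sets without an ID suffix put it at -0.74. Over all genes, those 2-fold higher and lower with NFIL3 numbered 126 and 90, against 347 and 157 with the floor of 62.9, 36 and 48 with that of 547, 266 and 133 with log2(signal + 16), and 48 and 190 with median scaling. With FSK/PMA 698 and 1072 became 420 and 402 with the floor of 547. Of the values of single named members under these alternatives, 170 of 184 with FSK/PMA and 153 of 181 with NFIL3 moved by less than the spread between probe sets. Many of them could not move. A bright gene with 1 probe set and no ID suffix keeps its value under several settings. Scaling to a common median moves all differences between signals above the floor by the same amount. These counts are thus no measure of robustness. Signals near the floor limit what can be said of the dim members. No paired analysis was possible because each group had 1 array.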

Other observations

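Cathepsins, calpains and other proteases, with some of their inhibitors, were read from a list of 24 genes, 23 of them on the array and 19 measured in each comparison. With FSK/PMA 0 were at least 2-fold higher and 2 were lower. Capn5, a calpain, had signals of 821 on the NFIL3 array, 221 on the FSK/PMA array and 964 on the control array, 4.36-fold lower with FSK/PMA and 3.71-fold higher with NFIL3. Capn1 was 2.22-fold lower with FSK/PMA. Cathepsin genes were within 2-fold, Ctsb at 0.68 and Ctsl at -0.17 on the log2 scale. With NFIL3 2 genes were higher and 0 lower. The second was Htra1, a secreted serine protease, with signals of 7469, 3618 and 2648 on the NFIL3, FSK/PMA and control arrays, 2.06-fold higher with NFIL3.

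Of 26 matrix and proteoglycan genes, substrates of the proteases above, 20 were measured in each comparison. With FSK/PMA 2 were at least 2-fold higher and 1 lower. Hapln1, the link protein that ties hyaluronan to proteoglycans, was at least 4.17-fold higher, Tnc, tenascin C, was 2.95-fold higher and Lama1, laminin alpha 1, was 3.04-fold lower. Versican, Vcan, had signals of 5574, 8467 and 7994 on the NFIL3, FSK/PMA and control arrays, within 2-fold. With NFIL3 Fn1, fibronectin, was 5.19-fold higher, with signals of 1833 on the NFIL3 array, 353 on the FSK/PMA array and 182 on the control array, and Dcn was 2.45-fold higher.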
